A study of Mus musculus with 10 samples.

Results

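The 10 genes described here act at the change from metaphase to anaphase. They are the spindle assembly checkpoint genes Bub1, Bub1b, Bub3, Mad1l1, Mad2l1, Ttk and Cenpe, the protector of centromeric cohesion Sgo1, and the anaphase regulators Pttg1 and Espl1. They were listed by symbol, and each symbol matched 1 of the 45232 Ensembl gene entries of the expression table, so that 10 of 45232 entries are members. RNA of whole cultures was sequenced after rRNA depletion from NIH3T3 cells, an immortalized mouse embryonic fibroblast line, and all cells carried a Lin37 mutation made with the CRISPR/Cas9 nickase. The cells came from 2 clones, each grown from a single cell, with InDels at the start of exon 4 or at the start of exon 6. In each clone an episome induced with doxycycline made luciferase in the KO cultures and wild-type Lin37 in the rescue cultures, each together with GFP, by which the cells were sorted, and all cultures were serum-starved for 60 h in 0% FCS. The exon 4 clone gave 2 KO and 2 rescue libraries, and the exon 6 clone gave 3 of each, of which the third is a technical repeat of culture 2.

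The spindle assembly checkpoint delays anaphase while kinetochores lack microtubules. Ttk and Bub1 are kinases that start the signal at the kinetochore, Mad1l1 holds Mad2l1 there, and Mad2l1, Bub1b (BubR1) and Bub3 join Cdc20 in the mitotic checkpoint complex, which inhibits the ubiquitin ligase APC/C. Once the checkpoint is satisfied, APC/C marks securin (Pttg1) for degradation, which frees separase (Espl1) to cleave cohesin. Most of these genes are transcribed late in the cell cycle, and in resting cells late genes are repressed by the DREAM complex, which contains Lin37 as a subunit of its MuvB core. MuvB is known to contact the cell cycle genes homology region (CHR), an element that often lies downstream of CCAAT boxes bound by NF-Y.

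The values are RPKM, reads scaled to gene length and library total, which can be compared between genes because they are set per length. Each library was rescaled by a factor between 0.322 and 2.68, and in all 5 KO and rescue pairs of the same clone and number the KO factor was the higher one, by 1.56 to 2.77 times. Before rescaling, the median gene was 0.64 higher in KO on the log2(RPKM + 0.5) scale, and all changes below are relative to the rescaled level. Lin37 itself lay between 0.27 and 0.419 RPKM in the KO libraries and between 2.13 and 5.14 in the rescue libraries, a log2 change of -2.26 ± 0.17 (SE; adjusted p = 0.000291, limma, Benjamini-Hochberg adjustment). The 8 fibroblast markers summed to 473 to 770 RPKM in KO and 509 to 834 in rescue, whereas 5 of 6 markers of other cells stayed under 0.2 RPKM in every library and none was at 0 throughout. The sixth, Cdh1, reached 0.474 RPKM, and the summed level of all of them lay between 0.0256 and 0.482 RPKM in KO and between 0.0657 and 0.642 in rescue. The read depth of the libraries is not given in the sources used here, so no counting error stands beside a single value, and the libraries list 7920 to 22034 entries at 0.

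The promoters are shown first because the members were compared as genes that may move together. RefSeq (GRCm38.p6, the build of the mm10 coordinates) gave 12 windows for the 10 genes, each from 250 bases before the start site to 50 bases from it onward, with Bub3 and Mad1l1 having 2 start sites each. A CHR (TTTGAA or TTCGAA, on either strand) was found for 6 of 10 members, and 19.2% of all 32817 such windows held one. Members were counted by gene, with a match in any of their windows, whereas the shares over all were counted by window. The CCAAT box was found for 7 of 10 members and in 37.4% of all windows. None of the members held an E2F site as searched on either strand, which 9.57% of all windows held. The letters searched were TTCCCGC (in 4.60% of all windows), TTGGCGC (in 2.45%), TTCGCGC (in 1.59%) and TTGCCGC (in 1.81%). No motif searched overlapped another in these windows. The windows with a CHR are printed below on the strand of the gene, 5′ to 3′, with CHR elements and CCAAT boxes (reverse complements included) in capitals, since they show where both elements stand relative to each other. For Bub3, the start site nearer to the GENCODE gene start is shown.
Bub1 (chr2:127831810-127832109, minus strand): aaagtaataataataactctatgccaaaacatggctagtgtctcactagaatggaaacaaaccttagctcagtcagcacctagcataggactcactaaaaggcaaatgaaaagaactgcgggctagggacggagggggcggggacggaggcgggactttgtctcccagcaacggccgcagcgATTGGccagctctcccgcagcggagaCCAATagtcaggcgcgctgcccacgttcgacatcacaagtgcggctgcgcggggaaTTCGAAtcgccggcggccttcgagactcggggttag
Bub1b (chr2:118597961-118598260, plus strand): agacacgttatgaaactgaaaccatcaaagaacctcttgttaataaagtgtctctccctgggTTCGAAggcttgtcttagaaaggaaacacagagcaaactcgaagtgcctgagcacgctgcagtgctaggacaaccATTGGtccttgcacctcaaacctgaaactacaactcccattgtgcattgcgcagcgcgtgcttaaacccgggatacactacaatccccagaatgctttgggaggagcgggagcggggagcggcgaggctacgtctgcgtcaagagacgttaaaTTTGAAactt
Ttk (chr9:83834439-83834738, plus strand): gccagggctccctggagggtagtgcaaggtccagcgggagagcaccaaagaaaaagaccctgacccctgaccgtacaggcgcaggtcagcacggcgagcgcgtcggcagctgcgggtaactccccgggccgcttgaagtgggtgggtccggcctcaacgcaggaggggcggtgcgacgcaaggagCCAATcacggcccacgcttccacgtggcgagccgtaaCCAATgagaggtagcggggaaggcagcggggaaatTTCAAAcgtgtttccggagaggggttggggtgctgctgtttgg
Sgo1 (chr17:53689266-53689565, minus strand): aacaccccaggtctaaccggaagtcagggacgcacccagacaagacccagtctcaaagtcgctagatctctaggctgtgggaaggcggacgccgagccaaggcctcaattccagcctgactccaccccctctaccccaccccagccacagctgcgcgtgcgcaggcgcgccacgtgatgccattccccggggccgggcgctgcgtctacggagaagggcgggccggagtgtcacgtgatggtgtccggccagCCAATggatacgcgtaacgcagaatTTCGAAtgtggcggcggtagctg
Espl1 (chr15:102296043-102296342, plus strand): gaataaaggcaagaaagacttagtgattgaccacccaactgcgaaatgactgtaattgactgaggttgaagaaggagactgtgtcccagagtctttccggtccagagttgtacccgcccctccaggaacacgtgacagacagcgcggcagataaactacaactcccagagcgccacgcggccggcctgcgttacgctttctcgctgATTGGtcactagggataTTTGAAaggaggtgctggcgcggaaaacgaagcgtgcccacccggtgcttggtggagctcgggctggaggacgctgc
Bub3 (chr7:131560120-131560419, plus strand): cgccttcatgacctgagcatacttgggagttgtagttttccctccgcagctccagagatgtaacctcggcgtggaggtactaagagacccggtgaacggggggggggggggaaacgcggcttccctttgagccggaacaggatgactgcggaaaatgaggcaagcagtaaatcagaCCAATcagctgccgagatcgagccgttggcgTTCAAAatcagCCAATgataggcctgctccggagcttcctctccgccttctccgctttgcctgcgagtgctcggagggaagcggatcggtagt

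In Bub1, Bub1b, Ttk, Sgo1 and Espl1 a CHR followed the CCAAT box or boxes toward the gene, starting 14 bases downstream of the RefSeq start in Bub1, 40 downstream in Bub1b, 7 downstream in Ttk, 27 downstream in Sgo1 and 27 upstream in Espl1. Bub1b held a second CHR 188 bases upstream, before its CCAAT box at 113 bases upstream. In Bub3 the CHR lay between its CCAAT boxes, 43 bases upstream of that start site. Cenpe held a CCAAT box 12 bases upstream and no CHR as searched. The windows of Mad1l1, Mad2l1 and Pttg1 held none of these letters. The RefSeq start of Mad2l1 lies 169 bases upstream of the GENCODE gene start, and that of Pttg1 270 bases inside the gene, so their windows cover other bases than a window at the GENCODE start would. A match describes letters in a window and not a bound site.

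**Figure D1:**
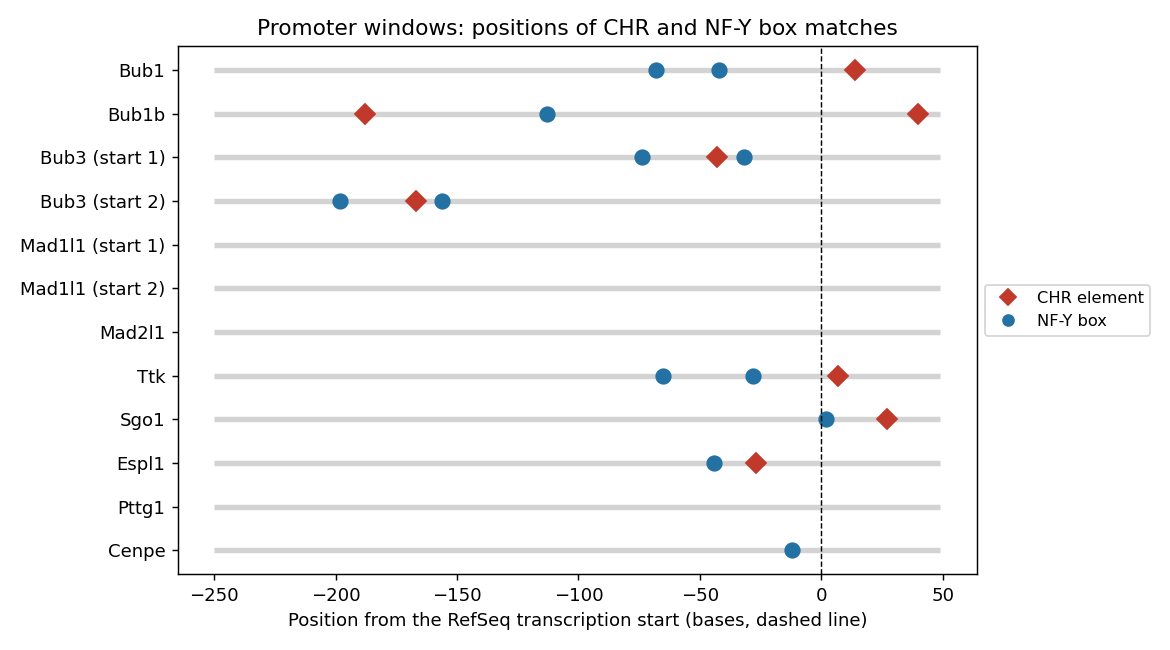
Positions of CHR elements (red diamonds) and NF-Y boxes (blue circles) in the 12 promoter windows of the 10 genes, in bases from the RefSeq start site (dashed line); grey bars are the windows of 300 bases. A CHR stands to the right of the NF-Y boxes in Bub1, Bub1b, Ttk, Sgo1 and Espl1, whereas the windows of Mad1l1, Mad2l1 and Pttg1 are empty.

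To ask how starved cells without Lin37 express the checkpoint, KO was compared with rescue over both clones. Of the 10 members, 9 were higher in KO, and Bub3 did not pass the test (limma on log2(RPKM + 0.5), clone as covariate, Benjamini-Hochberg adjusted p under 0.05). Over all 16912 genes tested, 271 or 1.60% were higher and 14 were lower. Genes entered by their mean over KO and rescue together, which had to reach 0.1 RPKM. Bub1, Ttk and Sgo1 averaged less than that in rescue (0.0882, 0.0493 and 0.0543 RPKM) and entered only through their KO level. The median log2 change of the members was 1.35, beside -0.03 over all genes tested. The levels of all 10 members were higher in KO in 4 of 4 pairs of the same clone and culture number, which held for 8.94% of all genes. For all 10 members each KO library also lay above each rescue library, which held for 2.44% of the genes tested. All members but Bub3 and Mad1l1 stand on the study's own list of genes that were higher in KO, which was drawn from these libraries, so their count is not independent evidence of that direction. In RNA of whole cultures, more cells that express a gene and more RNA per cell cannot be told apart.

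**Figure D2:**
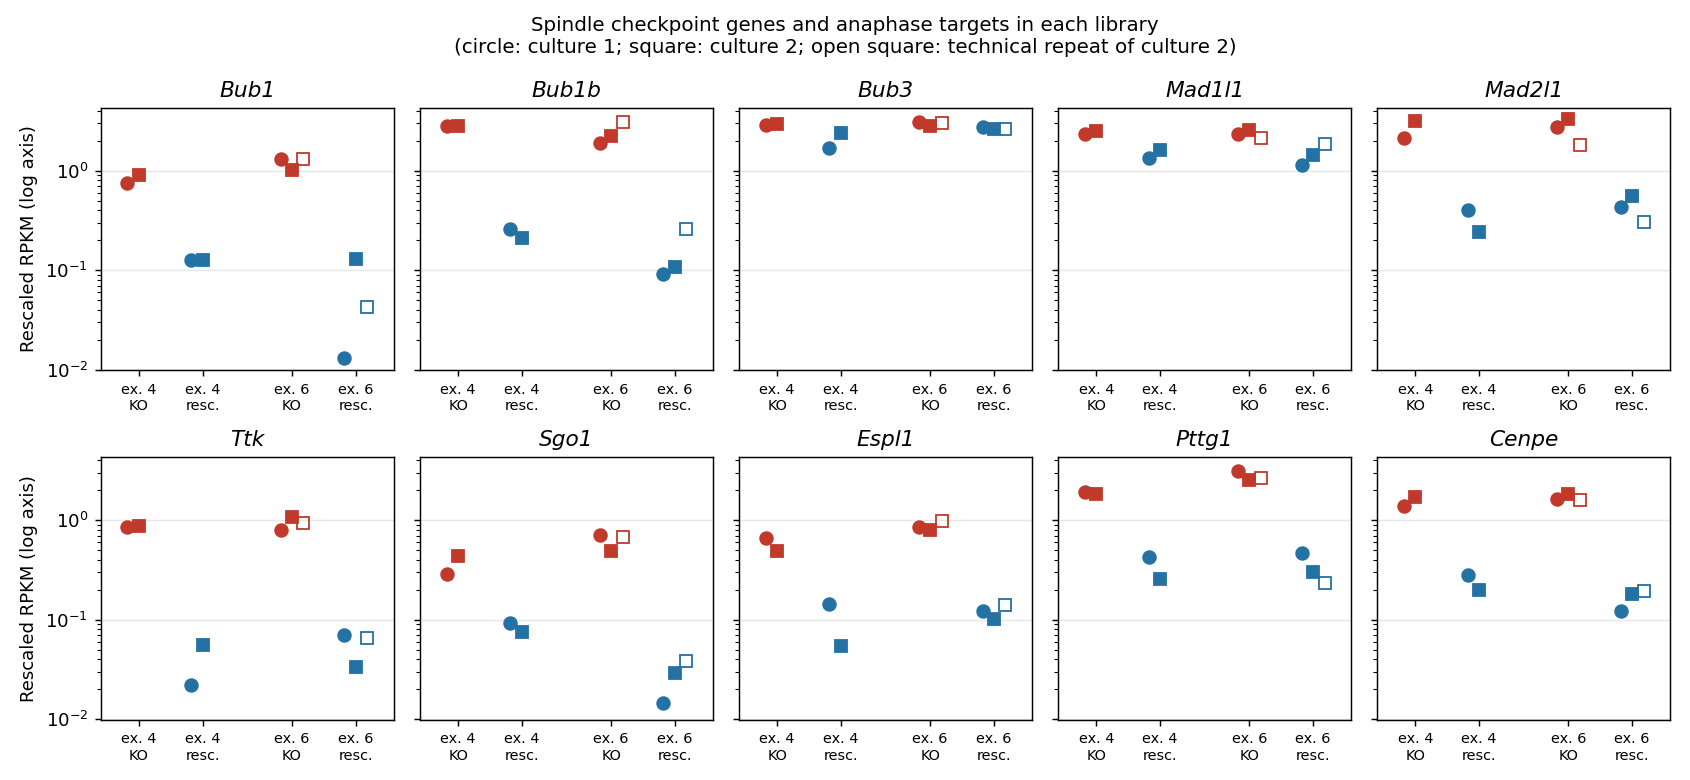
Rescaled RPKM (log axis) of each of the 10 genes in each of the 10 libraries, by clone and genotype; filled circles are culture 1, filled squares culture 2 and open squares the technical repeat of culture 2. For 8 genes the KO libraries (red) lie well above the rescue libraries (blue), and for Bub3 and Mad1l1 the groups lie close together.

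Among the kinases, Ttk (Ensembl ENSMUSG00000038379, chr9:83834689-83872389), the kinase also called Mps1 that recruits the other checkpoint proteins, was at 0.849 and 0.881 RPKM in the exon 4 KO libraries and at 0.0221 and 0.0557 in the exon 4 rescue libraries. In the exon 6 clone it was at 0.793, 1.09 and 0.942 RPKM in KO and at 0.0698, 0.0335 and 0.0655 in rescue. Ttk was thus low in every rescue library and high in every KO library, with no overlap in either clone. Its mean was 0.884 ± 0.0936 RPKM in KO and 0.0493 ± 0.02 in rescue (SD, n = 4 replicates each), and the ratio of these means over both clones, 17.9, was the highest of the 10 members. Within the exon 4 clone it was also the highest, at 22.2. Within the exon 6 clone its ratio of 15.1 lay below those of Sgo1 (27.2), Bub1 (24.9) and Bub1b (16.6). These ratios rest on low rescue levels, so their order is not firm. The log2 change of Ttk was 1.33 ± 0.10 (SE; adjusted p = 0.000253, limma, Benjamini-Hochberg adjustment).

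Bub1 (ENSMUSG00000027379, chr2:127801122-127831865, minus strand), a kinase that marks centromeres and brings other checkpoint proteins to kinetochores, was at 0.75 and 0.91 RPKM in the exon 4 KO libraries and at 0.126 and 0.128 in rescue. In the exon 6 clone its level was 1.31, 1.01 and 1.31 RPKM in KO and 0.013, 0.13 and 0.043 in rescue. The lowest of these values set a wide range of ratios, from 5.97 to 101 over the 4 pairs, although every KO library lay above every rescue library. Over both clones the log2 change of Bub1 was 1.37 ± 0.14 (SE; adjusted p = 0.00121, limma, Benjamini-Hochberg adjustment). Cenpe (ENSMUSG00000045328, chr3:135212537-135273611), a kinesin that moves chromosomes to the metaphase plate, was at 1.38 and 1.72 RPKM in exon 4 KO and at 0.283 and 0.198 in exon 4 rescue. It was at 1.65, 1.83 and 1.59 RPKM in exon 6 KO and at 0.122, 0.18 and 0.194 in exon 6 rescue. The Cenpe groups stood apart in both clones, with a log2 change of 1.60 ± 0.11 (SE; adjusted p = 0.00021, limma, Benjamini-Hochberg adjustment).

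Of the subunits of the mitotic checkpoint complex, Bub1b (ENSMUSG00000040084, chr2:118598211-118641591) had the largest log2 change of the members. It was at 2.82 and 2.79 RPKM in the exon 4 KO libraries and at 0.257 and 0.212 in rescue. In the exon 6 clone it was at 1.91, 2.25 and 3.11 RPKM in KO and at 0.0914, 0.109 and 0.261 in rescue. The rescue libraries of both clones were all under 0.3 RPKM and the KO libraries all above 1.9. The log2 change was 2.15 ± 0.11 (SE; adjusted p = 7e-05, limma, Benjamini-Hochberg adjustment), and the ratio of the means over both clones was 13.7, below the 17.9 of Ttk. Within the exon 6 clone this ratio was 16.6, above the 15.1 of Ttk.

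Mad2l1 (ENSMUSG00000029910, chr6:66535390-66547220), the subunit that changes fold to bind Cdc20, was at 2.13 and 3.2 RPKM in exon 4 KO and at 0.405 and 0.24 in exon 4 rescue. It was at 2.75, 3.28 and 1.82 RPKM in exon 6 KO and at 0.43, 0.56 and 0.302 in exon 6 rescue. Its technical repeats of culture 2 differed by 0.70 (KO) and 0.40 (rescue) on the log2(RPKM + 0.5) scale, the widest of the members, which is less than its log2 change of 1.84 ± 0.13 (SE; adjusted p = 0.000253, limma, Benjamini-Hochberg adjustment). Mad1l1 (ENSMUSG00000029554, chr5:140008689-140321552, minus strand), the kinetochore receptor of Mad2l1, was expressed in rescue as well, at 1.35 and 1.61 RPKM for exon 4 and 1.15, 1.43 and 1.85 for exon 6. In KO it was at 2.35 and 2.52 RPKM for exon 4 and at 2.36, 2.59 and 2.12 for exon 6. The groups were close but did not overlap after rescaling, and did overlap in the RPKM as deposited. Its log2 change of 0.59 ± 0.11 (SE) passed over both clones (adjusted p = 0.0305, limma, Benjamini-Hochberg adjustment). The call of Mad1l1 was lost without any one of 6 of the 8 replicates (all but exon 4 rescue replicate 2 and exon 6 rescue replicate 2), with an adjusted p of up to 0.141 (limma, Benjamini-Hochberg adjustment). Within Mad1l1 lie 5 other annotated genes, 3 of them antisense, and none of the sources states whether reads were counted by strand.

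Bub3 (ENSMUSG00000066979, chr7:131560222-131571895), the partner that carries Bub1 and Bub1b to kinetochores, lay between 1.68 and 3.09 RPKM over all libraries. It was at 2.89 and 2.95 RPKM in exon 4 KO and at 1.68 and 2.41 in exon 4 rescue. It was at 3.09, 2.85 and 3.03 RPKM in exon 6 KO and at 2.74, 2.61 and 2.66 in exon 6 rescue. The lowest KO library stood just above the highest rescue library after rescaling, and the RPKM as deposited overlapped. The log2 change of Bub3 was 0.29 (95% confidence interval 0.02 to 0.56) and did not pass (adjusted p = 0.511, limma, Benjamini-Hochberg adjustment). Bub3 overlaps Fgfr2 on the opposite strand, which had a log2 change of -0.20 ± 0.10 (SE; adjusted p = 0.64, limma, Benjamini-Hochberg adjustment).

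Pttg1 (ENSMUSG00000020415, chr11:43420250-43426251, minus strand), securin, the inhibitor of separase, was at 1.92 and 1.83 RPKM in exon 4 KO and at 0.427 and 0.255 in exon 4 rescue. It was at 3.1, 2.55 and 2.67 RPKM in exon 6 KO and at 0.471, 0.299 and 0.236 in exon 6 rescue. The groups did not overlap, and the log2 change was 1.73 ± 0.14 (SE; adjusted p = 0.000373, limma, Benjamini-Hochberg adjustment). Espl1 (ENSMUSG00000058290, chr15:102296266-102324357), separase, which cleaves cohesin at anaphase, was at 0.67 and 0.494 RPKM in exon 4 KO and at 0.143 and 0.0542 in exon 4 rescue. It was at 0.857, 0.796 and 0.974 RPKM in exon 6 KO and at 0.121, 0.102 and 0.14 in exon 6 rescue. All KO libraries again lay above all rescue libraries, with a log2 change of 1.00 ± 0.11 (SE; adjusted p = 0.00218, limma, Benjamini-Hochberg adjustment). Securin and separase were thus both higher in KO, and the ratio of the KO mean to the rescue mean was 6.65 for Pttg1 and 6.61 for Espl1.

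Sgo1 (ENSMUSG00000023940, chr17:53674786-53689333, minus strand), shugoshin, which protects cohesin at centromeres, was the lowest member in KO. It was at 0.291 and 0.435 RPKM in exon 4 KO and at 0.0936 and 0.0755 in exon 4 rescue. It was at 0.717, 0.495 and 0.68 RPKM in exon 6 KO and at 0.0144, 0.0289 and 0.0382 in exon 6 rescue. The KO libraries of the exon 4 clone stood below those of the exon 6 clone, and its rescue libraries above, but KO and rescue did not overlap. The log2 change of Sgo1 was 0.85 ± 0.14 (SE; adjusted p = 0.0204, limma, Benjamini-Hochberg adjustment). This call was lost without exon 4 KO replicate 2 or without any one of the 4 exon 6 replicates, with an adjusted p of up to 0.115 (limma, Benjamini-Hochberg adjustment). Stretches of 31 bases shared with other transcripts made up 4.23% of the Sgo1 transcripts and 4.58% of those of Cenpe, and at most 3.01% of those of the other members.

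The order of the levels changed between the groups. Ranges here are those of the 4 replicates of each group, with technical repeats averaged. By single library, Bub3 (lowest 1.68 RPKM) and Mad1l1 (highest 1.85) overlapped in rescue, as did Cenpe (highest 1.830) and Pttg1 (lowest 1.829) in KO. In rescue, Bub3 (2.37 ± 0.479 RPKM; SD, n = 4) and Mad1l1 (1.44 ± 0.234) stood above all others and apart from each other, and no other member had a mean above that of Mad2l1 (0.376 ± 0.0918). From Mad2l1 down to Ttk, each member's range overlapped that of the next one in the order. In KO, Bub3 (2.97 ± 0.0844 RPKM), Mad2l1 (2.66 ± 0.444), Bub1b (2.55 ± 0.429), Mad1l1 (2.4 ± 0.0803) and Pttg1 (2.36 ± 0.601) formed a run of overlapping ranges. Cenpe followed at 1.61 ± 0.161 RPKM, apart from the genes on both sides of it, and then Bub1 (1.03 ± 0.252), Ttk, Espl1 (0.726 ± 0.182) and Sgo1 (0.508 ± 0.185) with overlapping ranges. In KO the range of Mad2l1 thus overlapped that of Mad1l1 and Bub1b lay just below Bub3, whereas in rescue both stood far below these partners.

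The difference of log2(RPKM + 0.5) between binding partners was also compared between KO and rescue in 4 pairs of genes. The same replicates gave the changes and the order above, so these p-values are no independent evidence of unequal change. The pairs of Bub1 and Bub1b also share Bub3. Bub1 minus Bub3 was -1.19 ± 0.21 in KO and -2.27 ± 0.36 in rescue (SD, n = 4), a difference of 1.08. Bub1b minus Bub3 was -0.20 ± 0.25 in KO and -2.05 ± 0.39 in rescue, a difference of 1.86. Mad2l1 minus Mad1l1 was 0.11 ± 0.17 in KO and -1.14 ± 0.29 in rescue, a difference of 1.26. In each of these pairs the gene named first gained on its partner. For all 4 pairs of genes the exact two-sided permutation test gave p = 0.0286, the smallest that 70 arrangements allow, and 0.0286 after Benjamini-Hochberg adjustment over the 4. These 70 arrangements mix the 2 clones, and a test that keeps them within clones, which would have fewer arrangements, was not run. Pttg1 minus Espl1 was 1.21 ± 0.15 in KO and 0.48 ± 0.14 in rescue, a difference of 0.73 on this scale. Without the pseudocount, an alternative added after the data were seen, this difference was -0.02 (exact permutation test, adjusted p = 0.857), so that securin and separase changed by about the same ratio. With the KO and rescue cultures paired by number, no exact test of 4 pairs can give a p under 0.125, which all 4 comparisons reached.

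**Figure D3:**
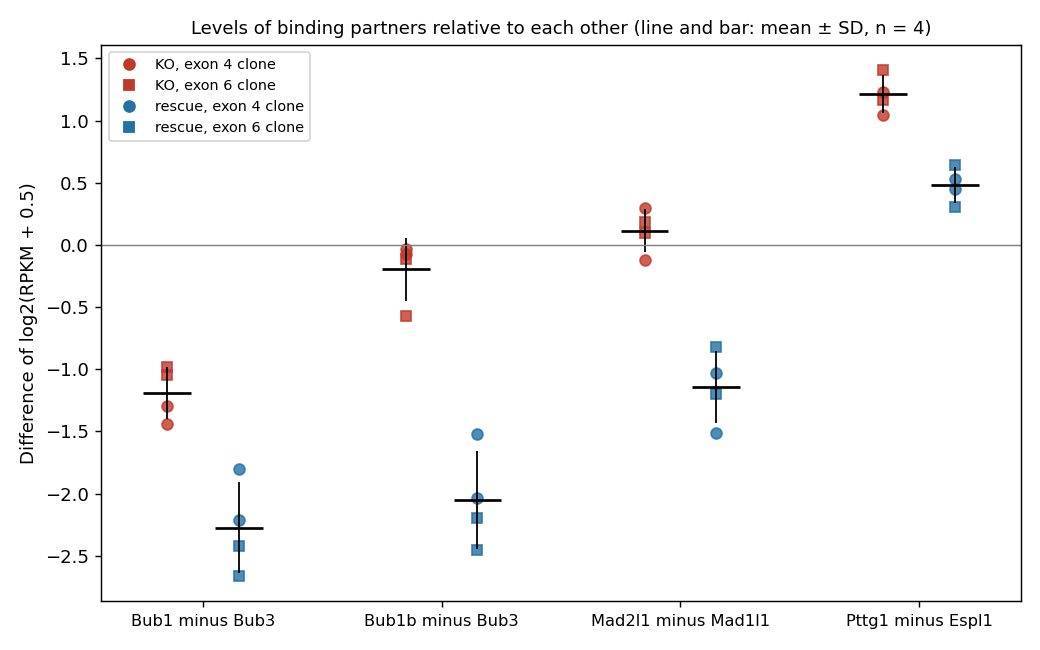
Difference of log2(RPKM + 0.5) between binding partners in each of the 4 KO (red) and 4 rescue (blue) replicates; circles are the exon 4 clone, squares the exon 6 clone, and black lines and bars give the mean ± SD. KO and rescue do not overlap in any pair, and Mad2l1 minus Mad1l1 changes from -1.14 in rescue to 0.11 in KO.

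Within the exon 6 clone, 8 of 10 members were higher in KO, beside 1.23% of the 15318 genes tested (limma, Benjamini-Hochberg adjustment). Bub1, Ttk and Sgo1 averaged under 0.1 RPKM in exon 6 rescue (0.0497, 0.0597 and 0.024) and entered only through their KO level. The changes of the 8 ranged from 1.13 for Sgo1 to 2.12 for Bub1b, with adjusted p from 0.0104 to 0.0231 (limma, Benjamini-Hochberg adjustment). Mad1l1 had a log2 change of 0.61 (adjusted p = 0.224) and Bub3 of 0.14 (adjusted p = 0.676; limma, Benjamini-Hochberg adjustment). With cultures paired by number, 7 members passed and Sgo1 had an adjusted p of 0.0537 (limma, Benjamini-Hochberg adjustment). Without any one of the 4 replicates no member passed, and the log2 changes of these 8 genes stayed between 1.05 and 2.32.

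Within the exon 4 clone, no gene of 18796 and no member passed the adjusted threshold (limma, Benjamini-Hochberg adjustment), and the lowest adjusted p of a member was 0.167, for Bub1b. At an unadjusted p under 0.05, 8 of 10 members were higher (all but Bub3 and Sgo1), beside 426 genes or 2.27% of all that were higher and 344 that were lower, and the median log2 change was 1.21. The changes ran from 0.44 for Bub3 to 2.17 for Bub1b. Mad2l1 stood at 1.93, Pttg1 at 1.50, Cenpe at 1.46, Ttk at 1.34 and Bub1 at 1.08. Ttk, Sgo1 and Espl1 averaged under 0.1 RPKM in exon 4 rescue (0.0389, 0.0845 and 0.0986) and entered only through their KO level. In both clones, all 10 members had both KO cultures above both rescue cultures, beside 11.4% of all genes for exon 4 and 21.8% for exon 6.

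The change in the exon 6 clone minus that in the exon 4 clone was tested by the interaction, and no member and no other gene of 16912 passed (limma, Benjamini-Hochberg adjustment), while 435 were higher and 251 lower at an unadjusted p under 0.05. Bub1 and Sgo1 had the widest difference, each 0.58, with 95% confidence intervals of 0.11 to 1.05 and 0.07 to 1.08 (adjusted p = 0.997 for both, limma, Benjamini-Hochberg adjustment). The difference was 0.45 for Pttg1 (-0.12 to 1.02), -0.05 for Bub1b (-0.60 to 0.50) and -0.02 for Ttk (-0.48 to 0.44). Intervals of this width do not show that the clones act alike.

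**Figure D4:**
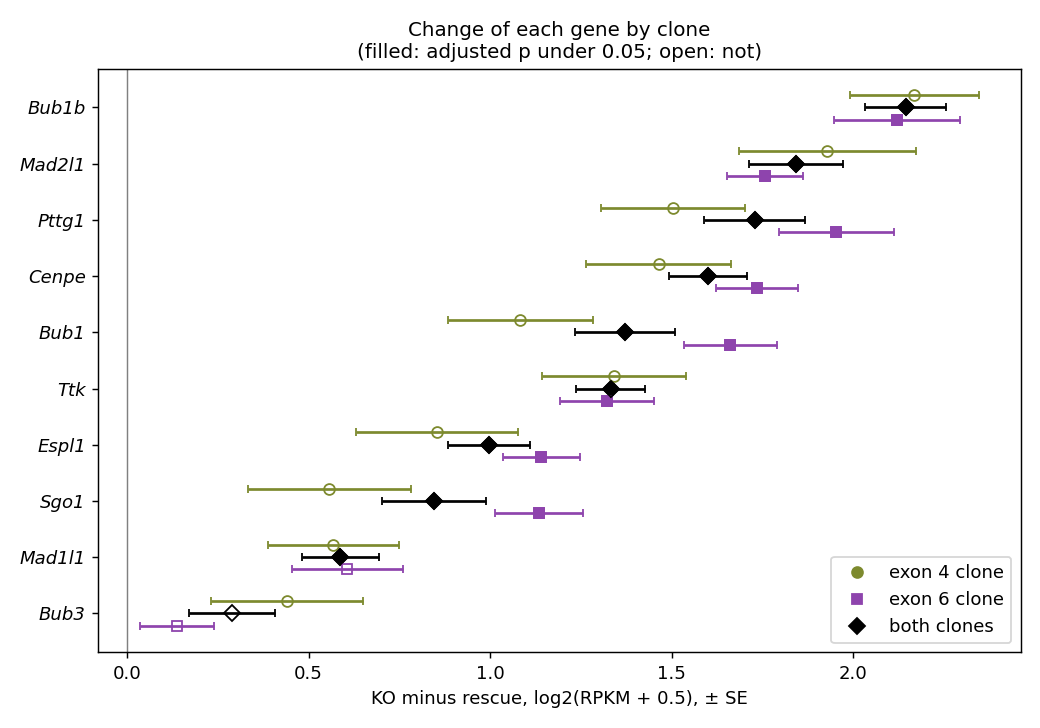
KO minus rescue on log2(RPKM + 0.5) ± SE for the 10 genes in the exon 4 clone (circles), the exon 6 clone (squares) and both clones (diamonds), with filled symbols at an adjusted p under 0.05. Bub1b lies at 2.17, 2.12 and 2.15, Bub3 at 0.44, 0.14 and 0.29, and Bub1 and Sgo1 are the genes in which the clones lie farthest apart.

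Genes around the members in the pathway were compared over both clones. Of 15 other checkpoint genes, which include the chromosomal passenger complex and the corona proteins of the kinetochore, 11 were higher in KO and none was lower, with a median log2 change of 1.14. On the log2 scale with the pseudocount, the largest change was that of Incenp, the scaffold of the passenger complex, at 1.88 ± 0.11 (SE). The lowest value was that of Tpr, a nuclear pore protein that binds Mad1l1, at -0.17 ± 0.14 (SE). Changes of low genes are understated on this scale, so the order partly follows the level. By the ratio of the KO mean to the rescue mean over both clones, Aurkb was highest (8.73) and Tpr lowest (0.879), with Incenp at 4.64. Within the exon 4 clone Cdca8 was highest (9.54, Aurkb 6.13) and Tpr lowest (0.767). Within the exon 6 clone Zwilch was highest (14.0, Aurkb 13.2) and Zw10 lowest (0.986, Tpr 0.992). Incenp passed and Tpr did not (adjusted p = 9.48e-05 and 0.791, limma, Benjamini-Hochberg adjustment). Besides Tpr, those that did not pass were Zwint (log2 change 0.22), Zw10 (0.09) and Mad2l1bp (0.31).

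Of 19 genes of the APC/C, its activators, its E2 enzymes and an inhibitor, 2 were higher, and the median log2 change was 0.00. These were Cdc20, the activator that the checkpoint complex holds, at 2.15 ± 0.16, and Ube2c, an E2 enzyme, at 1.15 ± 0.12 (SE; adjusted p = 0.000291 and 0.00165, limma, Benjamini-Hochberg adjustment). All others of this list, the core subunits among them, did not pass, and the lowest value was that of Anapc5, at -0.23 ± 0.11 (SE; adjusted p = 0.624, limma, Benjamini-Hochberg adjustment). Cdc20 rose from 0.402 ± 0.206 RPKM in rescue to 3.43 ± 0.407 in KO (SD, n = 4). None of 10 cohesin genes, whose complex holds sister chromatids until separase cleaves it, passed by limma, and none reached an unadjusted p under 0.05 over both clones. Within the exon 6 clone 2 of the 10 reached it, Smc3 (0.36) and Pds5a (0.34), beside 1121 of 15318 genes that were higher. Over both clones the changes of the 10 lay between -0.21 for Mau2, a cohesin loader, and 0.33 for Rad21, the subunit that separase cleaves. Separase and its inhibitor were thus higher in KO, while the separase target Rad21 stood at 8.51 ± 1.31 RPKM in KO and 6.79 ± 1.87 in rescue (SD, n = 4; adjusted p = 0.573, limma, Benjamini-Hochberg adjustment). Rad21 was higher in KO in 4 of 4 pairs, as were 8.94% of all genes tested.

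Markers of cycling cells moved with the members. Such markers are cell cycle genes, the class that DREAM represses, so they do not count cycling cells apart from the loss of Lin37. Of 8 such markers 6 were higher in KO, and their summed level lay between 13.6 and 16.1 RPKM in KO and between 3.17 and 5.37 in rescue. On log2(RPKM + 0.5) the largest change was that of Top2a, the topoisomerase of dividing cells, at 2.01 ± 0.16 (SE; adjusted p = 0.000353, limma, Benjamini-Hochberg adjustment). The smallest on this scale was that of Ccnb1, a mitotic cyclin and APC/C target, at 0.40 ± 0.10 (SE; adjusted p = 0.157, limma, Benjamini-Hochberg adjustment). This scale understates changes of low genes, and Ccnb1 was at 0.203 RPKM in KO and 0.033 in rescue. By the ratio of the KO mean to the rescue mean, Cdk1 was highest (11.5) and Pcna lowest (1.61), with Ccnb1 at 6.14 and Top2a at 5.22. None of the 8 was at 0 throughout. The paper measured DNA content and reported that starved Lin37 knockout lines still arrested, with slightly more cells in later cell cycle phases. The part of cycling cells in the changes of the members was not tested. The 8 fibroblast markers did not pass by limma, nor at an unadjusted p under 0.05, with changes between -0.27 and 0.24.

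**Figure D5:**
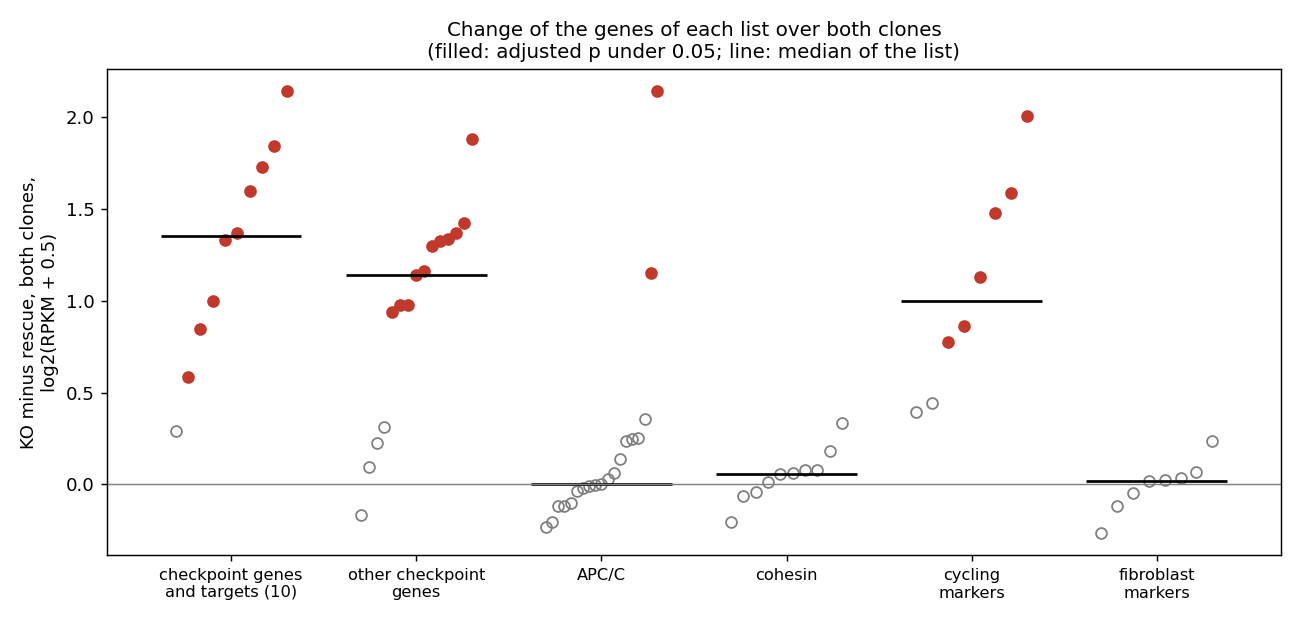
KO minus rescue over both clones on log2(RPKM + 0.5) for each gene of 6 lists; filled red points have an adjusted p under 0.05 and black lines are the median of each list. The 10 members have a median of 1.35 and the other checkpoint genes of 1.14. The points of the APC/C, other than Cdc20 and Ube2c, and of cohesin lie between -0.23 and 0.35.

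The likeness of other genes to the mean of the 10 members on log2(RPKM + 0.5) was ranked over the 10 libraries among the 6082 protein-coding genes whose mean reached 1 RPKM. The highest Pearson r was that of Foxm1 (0.990), followed by Chaf1a (0.988), Incenp (0.987), Kif20b (0.986) and Kif18b (0.984). Foxm1 lay between 2.93 and 4.18 RPKM in the KO libraries and between 0.347 and 0.658 in the rescue libraries. Among the members, likeness to the mean of the other 9 ran from 0.993 for Cenpe and 0.990 for Ttk to 0.887 for Mad1l1 and 0.623 for Bub3. The libraries fall into KO and rescue and share cultures, so these values describe that split and carry no test.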

How the data were processed

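RNA-seq libraries of 10 samples were used, grouped by their labels into KO and rescue of 2 clones. The authors trimmed with cutadapt 1.8.3, aligned to mm10 with segemehl 0-2-0 (split reads) and took gene counts from rnacounter 1-5-2 on GENCODE vM5, and they deposited RPKM values. The submitters' processing notes also name Picard 1.89. Their own test (edgeR after removal of GSAT_MM entries) needs counts and was not repeated, since whole reads could not be recovered: 17.2% to 30.2% of low values per library were whole multiples of the commonest step within 2%.

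Gene names were taken from GENCODE M21, in which 44585 of 45232 entries were found. Library factors were medians of ratios to gene-wise geometric means, taken from 8523 genes that averaged 1 RPKM or more and were above 0 everywhere. Technical repeats were averaged, which left 8 replicates, 4 KO and 4 rescue. Genes that averaged 0.1 RPKM or more were tested on log2(RPKM + 0.5), a scale that understates changes of low genes, with limma 3.58.1 (R 4.3.3; eBayes with a trend, clone as a covariate over both clones). This average ran over the KO and rescue replicates of a comparison together, so a gene could enter through its KO level alone. Benjamini-Hochberg adjustment ran over all genes tested, and adjusted p under 0.05 was called. Binding partners were compared by exact two-sided permutation tests that did not take clone into account (scipy 1.17.1, Python 3.11.15). The code was tested on simulated data. For the limma fits, changes were planted only in genes at 1 RPKM or more in rescue, above the rescue level of all members but Bub3 and Mad1l1.

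KO and rescue cultures share numbers in the labels. The deviations of same-numbered cultures from their group means correlated over 7579 genes (0.477 in the exon 4 and 0.36 in the exon 6 clone), so all comparisons were also fitted with culture number as the block. The study speaks of biological replicates, and the cultures within each clone come from that 1 clone, so p-values measure the spread between cultures. The 10 genes and all lists were chosen with earlier results of these data known. Named were the 10 members, Lin37, the genes with the highest and lowest signed log2 change of each pathway list and the cycling markers, and the 5 protein-coding genes most like the members' mean. Ube2c, Ube2s, Anapc11, Fbxo5, Zwint, Zw10, Mad2l1bp, Aurkb, Cdca8, Zwilch, Cdk1, Pcna, Ccnb2, Mcm2, Smc3, Pds5a and Fgfr2 were named after their values were seen. As alternatives, the pseudocount was set to 0.1 or 1, the minimum dropped or raised to 1 RPKM, and each of these was tried: RPKM as deposited, quantile normalization, technical repeats as separate libraries, the replicate block, no trend, no clone covariate and leaving out each replicate. The partner test without a pseudocount and the fit without technical repeats were added after the data were seen. Promoter sequences are from RefSeq.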

Additional observations from a re-analysis of the deposited data

Results flagged for a closer look

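In 3 of 20 groups of 4 replicates tested, 1 replicate stood apart from the others on the log2(RPKM + 0.5) scale by Dixon's criterion, which chance meets in about 1 group in 20. Bub1b was lowest in exon 6 KO culture 1, at 1.91 RPKM. Mad1l1 was highest in exon 4 KO culture 2, at 2.52 RPKM. Mad2l1 was lowest in exon 4 rescue culture 2, at 0.24 RPKM. None of the 3 values lay within the range of the other genotype.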

How the results depend on the processing

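Over both clones 9 members were called in all alternatives but those named here. Without a minimum level 7 were (155 genes higher in all), with Mad1l1 at an adjusted p of 0.128 and Sgo1 at 0.179 (limma, Benjamini-Hochberg adjustment). With a minimum of 1 RPKM 5 members were tested and 4 called (94 genes higher). Leaving out 1 replicate gave 7 to 9 members, 174 to 264 genes higher and 4 to 16 lower, with the fewest higher without exon 6 KO replicate 2 (174) and exon 6 KO replicate 1 (180). The other 7 called members were called in every alternative in which they were tested. RPKM as deposited brought the median of all genes from -0.03 to 0.64 and gave 875 genes higher and 13 lower, and turned the changes of Tpr (0.75), Anapc5 (0.69) and Mau2 (0.67) positive, and Ccnb1 passed (adjusted p = 0.0128, limma, Benjamini-Hochberg adjustment). Lower genes numbered 27 with the replicate block and 6 without the clone covariate.

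In the exon 6 clone, no minimum, with 45232 entries tested, gave 0 genes and 0 members. A minimum of 1 RPKM gave 67 genes and 3 members, and RPKM as deposited 10040 higher, 47 lower and all 10 members, with Bub3 at an adjusted p of 0.0028 and Mad1l1 at 5.06e-05 (limma, Benjamini-Hochberg adjustment). Leaving out 1 replicate gave 0 to 27 genes higher, 0 to 3 lower and 0 members. In the exon 4 clone 1 gene was lower with a minimum of 1 RPKM and 1 with the replicate block, and leaving out a replicate gave 0. The difference between the clones called 55 genes higher and 5 lower without a minimum and 7 higher as deposited, and no member. It changed sign for Bub1b with a pseudocount of 0.1 (0.22) and as deposited (0.51), for Mad2l1 (0.36) and Ttk (0.53) as deposited, and with technical repeats separate for Mad1l1 (-0.024) and Ttk (0.027). Leaving out 1 replicate gave -0.25 to 0.15 for Bub1b, -0.15 to 0.23 for Mad1l1, -0.42 to 0.075 for Mad2l1 and -0.13 to 0.094 for Ttk. The cause of these shifts was not tested, and depth is unknown.

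For binding partners, Bub1 minus Bub3 was 0.79 as deposited (exact permutation test, adjusted p = 0.0857). With the replicate block the differences were 1.08, 1.86, 1.26 and 0.73 in the order of the report, each with the smallest possible p, 0.125. Leaving out 1 replicate gave 0.95 to 1.24 for Bub1 minus Bub3, 1.72 to 2.03 for Bub1b minus Bub3, 1.13 to 1.36 for Mad2l1 minus Mad1l1 and 0.67 to 0.79 for Pttg1 minus Espl1, all at 0.0571, the smallest p then possible by the exact test. Pttg1 minus Espl1 was -0.024 without a pseudocount, 0.47 with 0.1 and 0.67 with 1. Beyond these and Sgo1 in the exon 6 clone, the block changed no call of a member.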
